A study of Mus musculus with 6 samples.

Results

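The genes described here are 32 genes of cholesterol and fatty acid synthesis, chosen by name from the probes of a mouse microarray that carried 28233 named genes. They comprise 17 enzymes that build cholesterol from acetyl-CoA, 5 regulators of that pathway, 9 enzymes that build or modify fatty acids, and the sterol carrier gene Stard4. Their RNA was measured in sorted myeloid cells of 3 infarcted left ventricles, called heart 1, heart 2 and heart 4, and of 3 spleens, called spleen 1, spleen 2 and spleen 4. All samples came from C57BL/6N wild-type mice at day 3 after acute myocardial infarction, and each spleen or ventricle was analysed on its own. The sort kept CD45high CD11bhigh cells and left out those that stained strongly for Ly6G, a neutrophil antigen, or for antigens of B cells (CD45R/B220), T cells (CD90.2/Thy-1.2) and natural killer cells (NK-1.1 and CD49b/DX5). Such a gate holds monocytes, macrophages and dendritic cells together, so each value is an average over a mixed population. There were no uninjured animals and no other day, so the comparison is between cells of 2 tissues of infarcted mice and not between infarcted and healthy mice. In bulk samples such as these, fewer cells of a type and less RNA per cell cannot be told apart.

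Cells make cholesterol from acetyl-CoA through the mevalonate pathway, which yields isoprenoid units, and then through squalene and lanosterol. Transcription of these enzymes is controlled by the sterol regulatory element-binding proteins, membrane-bound factors that the carrier protein Scap takes from the endoplasmic reticulum to the Golgi when sterols are low. When sterols are plentiful, the Insig proteins hold Scap in the endoplasmic reticulum. Srebf2 mainly drives the cholesterol genes and Srebf1 mainly the fatty acid genes, and macrophages, which take up cholesterol with dead cells, regulate this system together with sterol export.

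A level is given as the log2 of the processed fluorescence signal minus the 75th percentile of the same array, so that 0 is the level of a fairly bright probe and a step of 1 is a doubling. Levels compare samples for the same gene and not one gene with another, because probes differ in how strongly they bind. A fold change is the log2 level in heart minus that in spleen, with its standard error (SE) from limma, a linear model fitted across all genes. Calls used a threshold of 0.05 on p-values adjusted by Benjamini and Hochberg's method over 16353 genes. These were the genes whose probe the scanner program marked as well above background on all 3 heart arrays, all 3 spleen arrays, or both.

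The 75th percentile of the signal lay between 1557 and 1787 intensity units on the heart arrays and between 1678 and 1989 on the spleen arrays, with 53.2% to 56.9% and 56.2% to 63.8% of probes well above background and 0 saturated spots. Ptprc and Itgam, the genes of the sort antigens CD45 and CD11b, and the myeloid marker Csf1r were well above background on all 6 arrays. The list of 8 myeloid and macrophage markers summed to 317.37 to 381.03 in heart and 167.29 to 354.37 in spleen, in linear units of the 75th percentile. Of its 8 genes, limma called 2 higher (9.05% of all tested genes) and 0 lower (6.43% of all tested genes). With an unadjusted p under 0.05, 4 were higher and 0 lower, against 3011 and 2227 of all 16353 tested genes. The called genes were Mertk, a receptor for dying cells (13-fold, limma, adjusted p = 0.0262), and Fcgr1, an antibody receptor of macrophages (4.77-fold, limma, adjusted p = 0.0385). Cd68 (3.63-fold, limma, adjusted p = 0.0537) and Adgre1 (2.3-fold, limma, adjusted p = 0.101) did not pass, though their tissues did not overlap. The heart samples correlated with each other at 0.991 to 0.994 and the spleen samples at 0.936 to 0.96. Spleen 1 stood apart and went against the sort gate. Its summed linear signal, in units of the 75th percentile, was 49.02 for 4 B cell markers, 32.77 for 4 T cell markers and 39.84 for 3 natural killer cell markers, against 0.63 to 1.63 in spleen 2 and spleen 4 and 0.09 to 0.72 in the heart samples. The spleen samples also held more signal of granulocyte precursor and neutrophil markers (14.19 to 17.17 in heart, 289.46 to 835.17 in spleen) and of cycling cell markers (0.89 to 1.41 in heart, 8.68 to 103.33 in spleen). Fibroblast markers summed to 0.88 to 3.08 in heart and 0.06 to 0.11 in spleen, and cardiomyocyte markers to 0.41 to 0.74 in heart and 0.09 to 0.13 in spleen. Monocyte markers summed to 236.02 to 254.13 in heart and 139.1 to 241.58 in spleen. Dendritic markers gave 3.35 to 4.03 and 1.83 to 4.48, and endothelial markers 2.35 to 2.73 and 1.89 to 2.05. Limma called 1 of 4 monocyte genes (Nr4a1) and 1 of 3 endothelial genes (Cdh5) higher (background 9.05%). It called 0 of 3 dendritic genes in either direction (background 15.5%). The part of these markers and their cells in the results that follow was not tested.

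The sterol regulatory element-binding proteins recognise a sterol regulatory element and some E-boxes, and work on many of their targets together with factors that bind a CCAAT box (NF-Y) and a GC box (Sp1). Promoter sequences from RefSeq (build GRCm38.p6, 250 bases before to 50 after the start of the gene) matched 25 of the 32 genes by symbol, all but Fdps, Fdft1, Sqle, Scd1, Scd2, Fads1 and Stard4. The promoters of the 5 called genes that had a sequence are given. That of Hmgcs1 is added because it alone of the 25 held the sterol regulatory element searched for. Capitals mark every match on either strand to TCACNCCAC (a sterol regulatory element), CACGTG (an E-box), CCAAT or GGGCGG (a GC box), and no matches of different motifs overlapped in these genes. The windows are chr3:89454291-89454590 on the plus strand (Pmvk), chr13:8885356-8885655 on the plus strand (Idi1), chr5:4104648-4104947 on the minus strand (Cyp51), chr15:82147019-82147318 on the plus strand (Srebf2), chr5:28071162-28071461 on the plus strand (Insig1) and chr13:119690101-119690400 on the plus strand (Hmgcs1).
Pmvk: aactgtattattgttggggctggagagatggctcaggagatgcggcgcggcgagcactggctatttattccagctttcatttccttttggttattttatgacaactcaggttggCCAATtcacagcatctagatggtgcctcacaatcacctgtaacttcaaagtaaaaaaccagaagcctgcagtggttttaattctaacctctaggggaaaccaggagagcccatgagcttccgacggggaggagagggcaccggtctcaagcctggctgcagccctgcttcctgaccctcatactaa
Idi1: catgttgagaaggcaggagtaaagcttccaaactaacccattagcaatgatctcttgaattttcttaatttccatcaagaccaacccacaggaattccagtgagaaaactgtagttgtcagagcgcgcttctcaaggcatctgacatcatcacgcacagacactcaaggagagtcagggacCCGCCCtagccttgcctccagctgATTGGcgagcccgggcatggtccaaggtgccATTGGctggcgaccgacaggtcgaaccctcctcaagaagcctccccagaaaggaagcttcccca
Cyp51: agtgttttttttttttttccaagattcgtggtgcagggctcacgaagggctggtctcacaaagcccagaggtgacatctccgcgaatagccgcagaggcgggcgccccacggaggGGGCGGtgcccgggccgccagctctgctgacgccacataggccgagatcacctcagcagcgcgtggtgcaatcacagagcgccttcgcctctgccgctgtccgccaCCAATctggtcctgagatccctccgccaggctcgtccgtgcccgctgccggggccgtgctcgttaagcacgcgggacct
Srebf2: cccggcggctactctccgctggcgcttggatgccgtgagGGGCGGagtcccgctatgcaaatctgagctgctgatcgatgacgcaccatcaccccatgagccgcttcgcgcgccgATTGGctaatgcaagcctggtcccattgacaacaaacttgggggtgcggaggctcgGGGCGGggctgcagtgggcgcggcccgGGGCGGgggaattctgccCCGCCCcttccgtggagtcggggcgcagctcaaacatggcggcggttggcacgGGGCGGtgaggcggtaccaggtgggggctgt
Insig1: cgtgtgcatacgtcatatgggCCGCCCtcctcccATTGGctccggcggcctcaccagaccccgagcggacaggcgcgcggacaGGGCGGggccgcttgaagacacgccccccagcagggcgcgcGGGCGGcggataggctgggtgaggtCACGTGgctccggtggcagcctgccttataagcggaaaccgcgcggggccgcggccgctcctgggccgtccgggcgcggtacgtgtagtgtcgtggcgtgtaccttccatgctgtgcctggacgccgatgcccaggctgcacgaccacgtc
Hmgcs1: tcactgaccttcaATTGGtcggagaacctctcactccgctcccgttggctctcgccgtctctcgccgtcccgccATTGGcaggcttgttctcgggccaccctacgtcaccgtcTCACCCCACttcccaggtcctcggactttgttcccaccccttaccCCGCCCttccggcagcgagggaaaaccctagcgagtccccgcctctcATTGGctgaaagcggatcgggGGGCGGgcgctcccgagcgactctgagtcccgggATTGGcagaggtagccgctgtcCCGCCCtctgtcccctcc

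A CCAAT box lay in 20 of the 25 promoters (80%), against 37.9% of all 27025 promoters in the table and 38.8% of the 9387 promoters of tested genes. All 5 called genes with a promoter sequence held it, at 29 bases before the start of the gene in Cyp51, 135 in Srebf2, 136 in Pmvk and 216 in Insig1, and at both 45 and 14 bases before it in Idi1. The GC box was found in 18 of 25 (72%), against 35.9% of all promoters and 59.4% of those of tested genes, and Pmvk was the called gene without it. The E-box CACGTG was found in 5 of 25 (20%), in Insig1, Sc5d, Hsd17b7, Scap and Elovl5, against 7.24% of all promoters and 9.83% of those of tested genes. The element TCACNCCAC was found in Hmgcs1 (4% of the 25), against 1.22% of all promoters. These matches describe letters in a window of 300 bases and do not show binding.

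Of the 32 genes, 30 were tested, and 6 of them were called higher in heart, namely the enzymes Pmvk, Idi1, Sqle and Cyp51 and the regulators Srebf2 and Insig1. The background share called higher was 9.05% of all tested genes. By limma 0 were called lower, where the background was 6.43%. With an unadjusted p under 0.05 from limma, 1 gene (Tm7sf2) was lower and 11 were higher, against 2227 and 3011 of all 16353 tested genes. An unmoderated test that gave each tissue its own variance called 0 of the 30 in either direction (0.33% of all tested genes). The median fold change over the 30 genes was 0.41, against 0.11 over all tested genes, and 21 of the 30 had a positive value (9549 of all 16353). With quantile normalization these medians were 0.30 and 0.04. In 14 genes every heart value was above every spleen value (24.6% of all tested genes), and in 4 every heart value was below (16.5% of all tested genes).

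**Figure D1:**
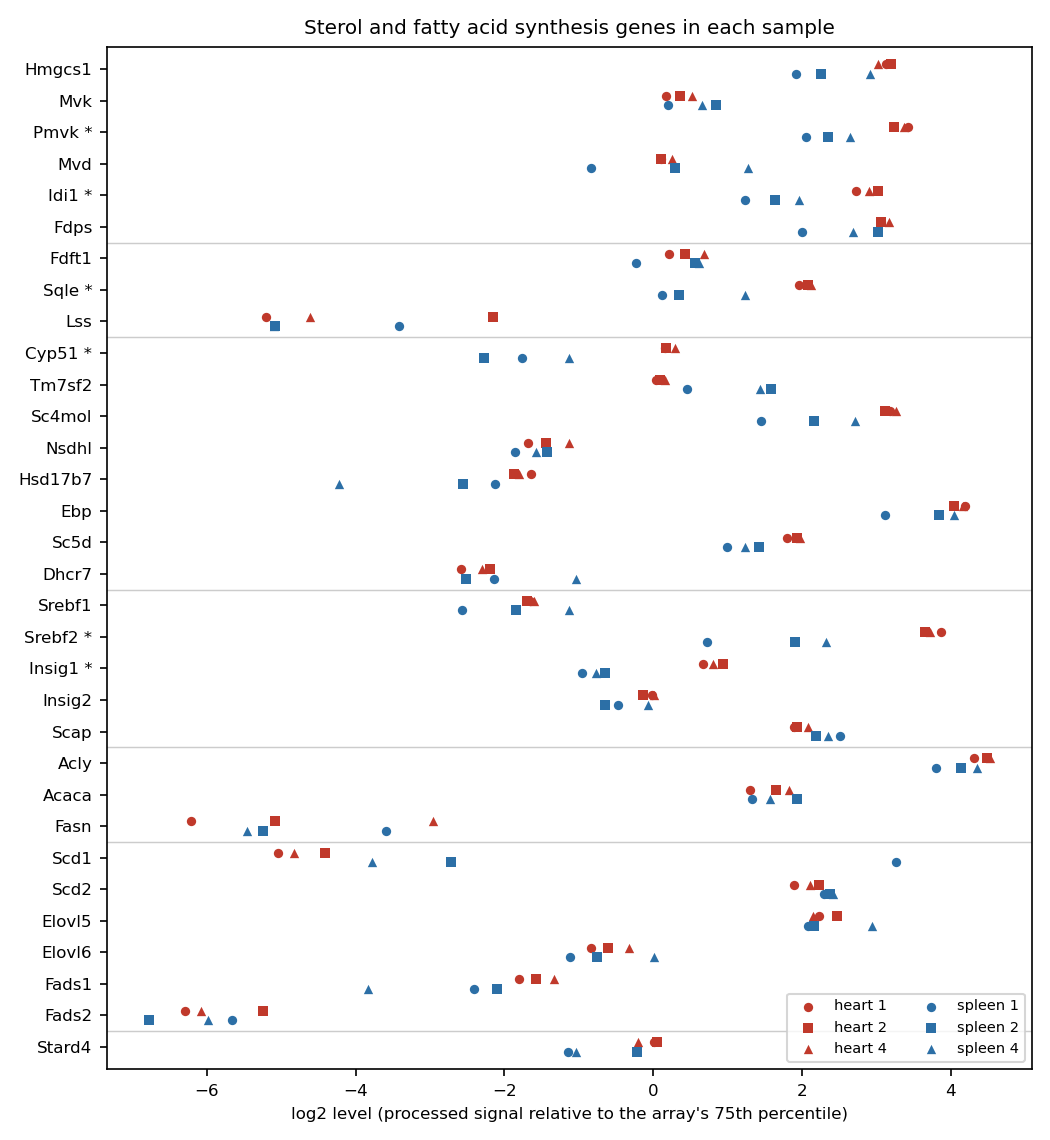
Log2 level of each of the 32 genes relative to the array's 75th percentile (horizontal axis), with heart samples in red and spleen samples in blue, genes grouped by role down the page and an asterisk at the 6 called genes. Red points sit close together and to the right of the blue points for Pmvk, Idi1, Sqle, Cyp51, Srebf2 and Insig1, while Scd1 in spleen 1 lies far above its other values.

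The 17 cholesterol enzymes had a median fold change of 0.54, with 4 called higher (background 9.05%) and 0 called lower (background 6.43%). In 10 the heart values lay wholly above the spleen values (24.6% of all tested genes), and in 1 wholly below (16.5%). Along the mevalonate pathway, 2 of 6 enzymes were called higher (background 9.05%). Hmgcs1, which condenses acetyl-CoA and acetoacetyl-CoA to hydroxymethylglutaryl-CoA, had log2 levels of 3.13, 3.20 and 3.03 in heart 1, 2 and 4, against 1.92, 2.26 and 2.92 in spleen 1, 2 and 4. All heart values were above all spleen values, with spleen 4 close to heart, and the fold change of 0.75 ± 0.28 (SE) did not pass (limma, adjusted p = 0.12). Without spleen 4 it was 1.03 (adjusted p = 0.0144 by limma), in a fit that called 14.7% of all tested genes higher. With any other sample left out, limma's adjusted p for Hmgcs1 was 0.189 to 0.303. Mvk, the kinase that first phosphorylates mevalonate, had overlapping values and a fold change of −0.21 ± 0.23 (SE, limma, adjusted p = 0.574).

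Pmvk, which adds the second phosphate to mevalonate (probe at mm9 chromosome 3, 89272867 to 89272926), had levels of 3.43, 3.24 and 3.37 in heart, against 2.06, 2.35 and 2.65 in spleen. No value of either tissue lay between those of the other, and the level was 1.99-fold higher in heart (log2 0.99 ± 0.21 SE, limma, adjusted p = 0.0264). A further probe of Pmvk gave 1.01 ± 0.22 (SE, limma, adjusted p = 0.0292). Mvd, the decarboxylase of the following step, differed more among the spleens than between tissues, with 0.11, 0.10 and 0.26 in heart, against −0.83, 0.30 and 1.27 in spleen (fold change −0.09 ± 0.50 SE, limma, adjusted p = 0.923).

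Idi1, the isomerase that makes dimethylallyl diphosphate (mm9 chromosome 13, 8891524 to 8891583), had levels of 2.73, 3.02 and 2.90 in heart, against 1.24, 1.64 and 1.96 in spleen. The tissues were well apart, and the level was 2.42-fold higher in heart (log2 1.27 ± 0.23 SE, limma, adjusted p = 0.019). Fdps, which joins these units to farnesyl diphosphate, was at 3.06, 3.07 and 3.17 in heart, against 2.00, 3.02 and 2.69 in spleen. Spleen 2 lay just under the lowest heart value, and the fold change of 0.53 ± 0.28 (SE) did not pass (limma, adjusted p = 0.254).

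Between farnesyl diphosphate and lanosterol, 1 of 3 enzymes was called higher (background 9.05%). Sqle, squalene epoxidase and a rate-limiting enzyme of this branch (mm9 chromosome 15, 59162688 to 59162747), had levels of 1.96, 2.09 and 2.12 in heart, against 0.12, 0.35 and 1.24 in spleen. Its heart values spanned less than any gap between spleen 4 and the heart samples, and it was 2.8-fold higher in heart (log2 1.49 ± 0.31 SE, limma, adjusted p = 0.0265). Fdft1, squalene synthase, was at 0.21, 0.43 and 0.68 in heart, against −0.23, 0.57 and 0.62 in spleen (fold change 0.12 ± 0.28 SE, limma, adjusted p = 0.81). A dimmer probe of Fdft1 gave another answer, with −4.11, −4.21 and −3.91 in heart, against −6.87, −6.11 and −5.19 in spleen, where it was well above background on 1 of 3 arrays. In spleen 1 and spleen 2 it lay below the dimmest level well above background on those arrays (−5.82 and −5.49). Its fold change of 1.98 ± 0.42 (SE, limma, adjusted p = 0.0282) uses these dim values, and it passed the filter only through heart. The call for Fdft1 thus depends on the probe, and the brighter probe, well above background on all 6 arrays, was not called. Lss, lanosterol synthase, was dim, with −5.20, −2.15 and −4.62 in heart, where 2 of 3 arrays were well above background, against −3.41, −5.08 and −5.10 in spleen (fold change 0.54 ± 0.87 SE, limma, adjusted p = 0.711).

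From lanosterol to cholesterol, 1 of 8 enzymes was called higher (background 9.05%). Heart values lay wholly above spleen values in 5 (24.6% of all tested genes). Cyp51, the cytochrome P450 that removes a methyl group from lanosterol (mm9 chromosome 5, 4081471 to 4081530), had levels of 0.16, 0.18 and 0.30 in heart, against −1.76, −2.28 and −1.13 in spleen. Every spleen was more than a log2 unit below every heart sample, and Cyp51 was 3.82-fold higher in heart (log2 1.94 ± 0.30 SE, limma, adjusted p = 0.0128). Sc4mol, also called Msmo1, the methylsterol monooxygenase that follows, was at 3.18, 3.12 and 3.27 in heart, against 1.45, 2.16 and 2.71 in spleen. The tissues did not overlap, but the fold change of 1.08 ± 0.33 (SE) did not pass (limma, adjusted p = 0.0727). Without spleen 4 it was 1.38 (adjusted p = 0.0152 by limma, background 14.7% higher). With any other sample left out, limma's adjusted p for Sc4mol was 0.0687 to 0.206. Sc5d, a sterol desaturase, was at 1.80, 1.93 and 1.97 in heart, against 1.0, 1.42 and 1.24 in spleen, with a fold change of 0.67 ± 0.18 (SE) just outside the threshold (limma, adjusted p = 0.0542).

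Hsd17b7, the ketoreductase of sterol demethylation, was at −1.64, −1.87 and −1.80 in heart, against −2.12, −2.55 and −4.22 in spleen. Spleen 4 was the lowest spleen here, unlike in the called genes, and the fold change of 1.19 ± 0.53 (SE) did not pass (limma, adjusted p = 0.178). Tm7sf2, a sterol reductase whose reaction the lamin B receptor Lbr can also carry out, ran the other way, with 0.04, 0.09 and 0.16 in heart, against 0.46, 1.59 and 1.44 in spleen. It was lower in all heart samples, with a fold change of −1.07 ± 0.32 (SE) that did not pass (limma, adjusted p = 0.071). Without spleen 1 it was −1.42 (adjusted p = 0.00586 by limma, background 6.92% lower). With any other sample left out, limma's adjusted p for Tm7sf2 was 0.107 to 0.211. A further probe of Tm7sf2 gave −1.12 (adjusted p = 0.0852 by limma). The remaining enzymes of these steps, Nsdhl (0.20), the isomerase Ebp (0.47) and the reductase Dhcr7 (−0.46), did not pass, with adjusted p from limma of 0.577, 0.288 and 0.467. Ebp was separated between the tissues by 4.05 in heart 2 and 4.04 in spleen 4, a gap smaller than the spread within either tissue.

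**Figure D2:**
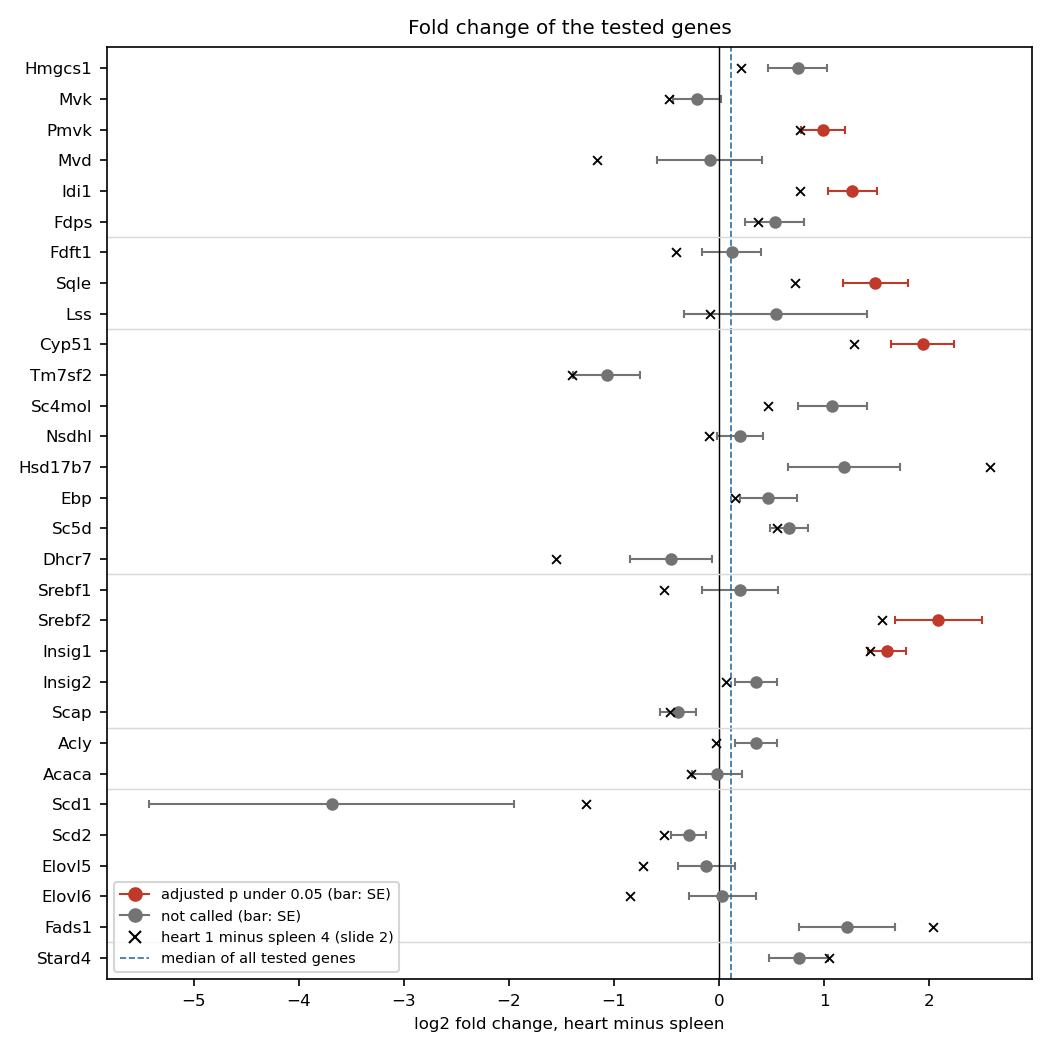
Log2 fold change of heart minus spleen for the tested genes, as points with bars of 1 SE from limma (red for called genes, grey for the others), a cross for heart 1 minus spleen 4 on slide 2, and a dashed line at the median of all tested genes (0.11). The 6 red points lie between 0.99 and 2.09 with their crosses also above 0, and Scd1 has the longest bar (SE 1.74).

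Among the 5 regulators, Srebf2 and Insig1 were called higher by limma (background 9.05%) and 0 were called lower (background 6.43%). With an unadjusted p under 0.05, 0 were lower (2227 of all 16353 tested genes), and the median fold change was 0.35. Srebf2, the factor that drives cholesterol genes (mm9 chromosome 15, 82030068 to 82030127), had levels of 3.87, 3.66 and 3.72 in heart, against 0.73, 1.91 and 2.32 in spleen. All spleens were below all heart samples and spread over more than a log2 unit, and the level was 4.27-fold higher in heart (log2 2.09 ± 0.41 SE, limma, adjusted p = 0.0221). Its further probe showed the same direction and a smaller change, with 2.32, 2.25 and 2.36 in heart, against 1.71, 1.42 and 1.75 in spleen. That change was 0.68 ± 0.17 (SE, limma, adjusted p = 0.0467), so the size for Srebf2 depends on the probe.

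Insig1, which retains Scap in the endoplasmic reticulum and is itself a target of the pathway (mm9 chromosome 5, 28404246 to 28404305), had levels of 0.67, 0.94 and 0.81 in heart, against −0.96, −0.65 and −0.77 in spleen. The values were tight in both tissues and far apart between them, and Insig1 was 3.03-fold higher in heart (log2 1.60 ± 0.18 SE, limma, adjusted p = 0.0044). Its relative Insig2 was at −0.01, −0.14 and 0.01 in heart, against −0.47, −0.64 and −0.07 in spleen, values that overlapped (0.35 ± 0.20 SE, limma, adjusted p = 0.294). Scap, the escort protein, was at 1.89, 1.93 and 2.08 in heart, against 2.51, 2.19 and 2.35 in spleen. All heart values of Scap were below all spleen values, but the fold change of −0.39 ± 0.17 (SE) did not pass (limma, adjusted p = 0.181). Srebf1, the factor that mainly drives fatty acid genes, had −1.65, −1.69 and −1.60 in heart, against −2.57, −1.85 and −1.13 in spleen, around the heart values on both sides (0.20 ± 0.36 SE, limma, adjusted p = 0.741). The difference between Srebf2 and Srebf1 in fold change was not tested.

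For the 9 enzymes of fatty acid synthesis and desaturation, 7 were tested and limma called 0 in either direction (1 with an unadjusted p under 0.05, Fads1), with a median fold change of −0.02. The background called in either direction was 15.5% (5238 of 16353 genes with an unadjusted p under 0.05). The unmoderated test called 0 as well, but it called only 0.33% of all tested genes. Its result therefore says nothing particular about these 7 genes. Acly, which makes cytosolic acetyl-CoA from citrate for both sterols and fatty acids, was at 4.32, 4.49 and 4.53 in heart, against 3.81, 4.14 and 4.35 in spleen (0.35 ± 0.20 SE, limma, adjusted p = 0.291). This small difference was −0.03 with quantile normalization. Acaca, acetyl-CoA carboxylase 1, was at 1.31, 1.65 and 1.83 in heart, against 1.33, 1.94 and 1.57 in spleen, and the tissues overlapped throughout (−0.02 ± 0.24 SE, limma, adjusted p = 0.959). Fasn, fatty acid synthase, was well above background on 1 of 3 heart arrays and 2 of 3 spleen arrays and could not be tested. Fads2, a desaturase of polyunsaturated fatty acids, was well above background on 0 of 3 heart arrays and 1 of 3 spleen arrays and was also not tested, so neither gene has a comparison here.

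Scd1, the stearoyl-CoA desaturase that makes monounsaturated fatty acids, was at −5.05, −4.41 and −4.83 in heart, where 2 of 3 arrays were well above background, against 3.26, −2.72 and −3.78 in spleen. Every heart value was below every spleen value, but spleen 1 lay far above spleen 2 and spleen 4. The fold change was −3.69 ± 1.74 (SE, limma, adjusted p = 0.202), and without spleen 1 it was −1.52 (adjusted p = 0.0511 by limma). Spleen 1 is the sample with B cell, T cell and natural killer cell markers, and it also had the most erythroid signal, 179.62 against 24.11 in spleen 2 and 9.94 in spleen 4, with 34.56, 44.23 and 9.08 in heart 1, 2 and 4. Of 4 markers of adipocytes, cells known to express Scd1, each was dim on every heart array, and only Plin1 was well above background on a spleen array, that of spleen 4. The part of the other cells in the Scd1 value of spleen 1 was not tested.

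Scd2, a relative of Scd1, was at 1.90, 2.23 and 2.11 in heart, against 2.30, 2.38 and 2.42 in spleen. Every heart value of Scd2 was also below every spleen value (16.5% of all tested genes), but spleen 1 did not stand out. Its fold change of −0.29 ± 0.17 (SE) did not pass (limma, adjusted p = 0.301). Elovl5 and Elovl6, which lengthen fatty acids, had fold changes of −0.12 and 0.03 (limma, adjusted p = 0.805 and 0.96) and overlapping values. Fads1, the delta-5 desaturase, was at −1.80, −1.57 and −1.33 in heart, against −2.41, −2.10 and −3.84 in spleen. It was separated between tissues, with spleen 4 lowest, and its fold change of 1.22 ± 0.46 (SE) did not pass (limma, adjusted p = 0.126).

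**Figure D3:**
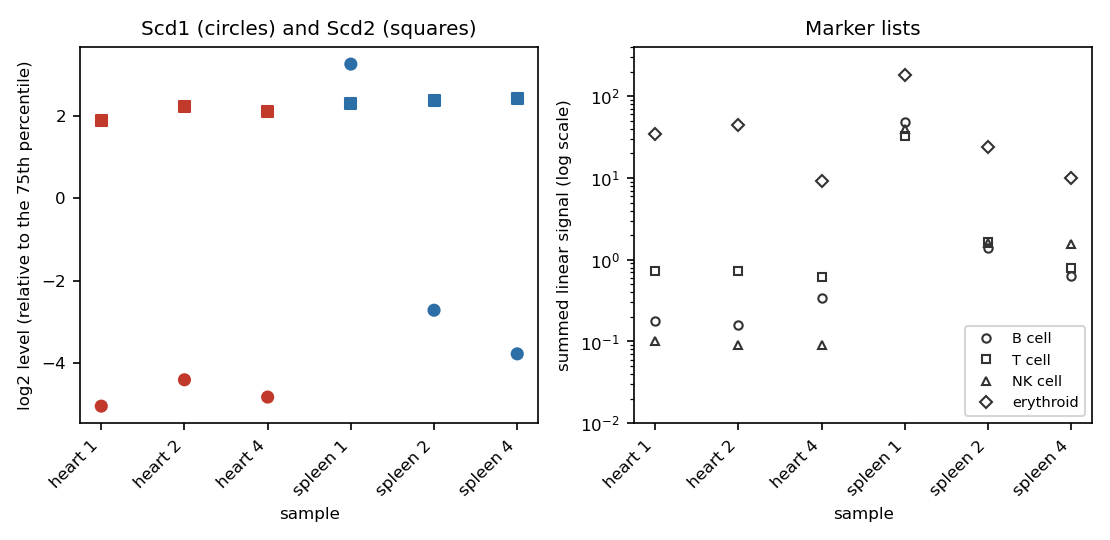
Left, log2 level of Scd1 (circles) and Scd2 (squares) in each sample, heart samples in red and spleen samples in blue, where only the same gene may be compared between samples. Right, summed linear signal (log axis) of the B cell, T cell, NK cell and erythroid marker lists in the same samples, in units of the array's 75th percentile. Spleen 1 has the highest value of Scd1 (3.26) and of all 4 lists.

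Stard4, a soluble carrier that moves cholesterol between membranes, was at 0.01, 0.05 and −0.20 in heart, against −1.15, −0.21 and −1.04 in spleen. Heart 4 and spleen 2 nearly met, and the fold change of 0.76 ± 0.28 (SE) did not pass (limma, adjusted p = 0.125). Without spleen 2 it was 1.05 (adjusted p = 0.0301 by limma, background 6.98% higher). With any other sample left out, limma's adjusted p for Stard4 was 0.186 to 0.313. A further probe of Stard4 gave 1.22 ± 0.36 (SE, limma, adjusted p = 0.0697).

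The spread of these genes was unequal between the tissues. The median SD over the tested genes was 0.114 in heart and 0.513 in spleen, with the larger SD in spleen in 27 of 30 genes (90%) and in 84% of all tested genes (median SD 0.144 in heart and 0.404 in spleen). Spleen 4 had the highest spleen value in 5 of the 6 called genes, all but Insig1, and in 17 of all 30 tested genes. Heart 4 likewise had the highest heart value in 17 of the 30 tested genes, and in 2 of the 6 called genes. Such counts were not made over all tested genes, so they are not shown to be particular to these genes. The median of spleen minus the heart mean over the 6 genes was −1.85 for spleen 1, −1.58 for spleen 2 and −1.13 for spleen 4. Spleen 4 was also the spleen with the least signal of granulocyte precursor and neutrophil markers (289.46, against 496.56 in spleen 1 and 835.17 in spleen 2) and of cycling markers (8.68, against 38.65 and 103.33), a relation that was not tested.

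Slides were not balanced over the tissues, while the dates in the sample titles were. Slide 1 held spleen 1 and spleen 2, slide 2 held heart 1 and spleen 4, and slide 3 held heart 2 and heart 4, and each slide was scanned on its own. Within slide 2, heart 1 minus spleen 4 was 0.77 for Pmvk, 0.77 for Idi1, 0.72 for Sqle, 1.29 for Cyp51, 1.55 for Srebf2 and 1.44 for Insig1. All 6 differences were positive and smaller than the fold changes over all samples. With slide as a fixed block, which leaves the difference to that pair, 0 of the 30 genes were called by limma (background 0.57% of genes in either direction), with adjusted p of 0.35, 0.38, 0.363, 0.221, 0.306 and 0.158 in the same order. The titles carry an earlier date for samples 1 and 2 of each tissue and a later date for samples 4. The only pair of the later date, heart 4 minus spleen 4, gave 0.72 for Pmvk, 0.94 for Idi1, 0.88 for Sqle, 1.43 for Cyp51, 1.40 for Srebf2 and 1.58 for Insig1. Within the earlier date 5 of the 6 were called and Pmvk was not (background 5.97% higher), and with the date as a block all 6 were (background 8.31% higher).

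The calls varied with the samples in the fit and with the variance model. With any heart sample left out, only Insig1 was called higher (1 of 30, against a background of 1.98%, 2.1% and 2.17%). Over these 3 fits limma's adjusted p was 0.0309 to 0.0373 for Insig1, 0.0643 to 0.0677 for Cyp51, 0.0767 to 0.0921 for Idi1, 0.0863 to 0.0946 for Srebf2, 0.0983 to 0.104 for Sqle and 0.0982 to 0.121 for Pmvk. In the unmoderated test the lowest adjusted p of the 30 genes was that of Insig1, 0.0509. Without spleen 2 the calls of Pmvk (limma, adjusted p = 0.0581) and Sqle (limma, adjusted p = 0.0686) ended and that of Stard4 was gained, where the background was 6.98% higher. The call of Pmvk also ended with median scaling (limma, adjusted p = 0.062), and those of Pmvk (limma, adjusted p = 0.0587) and Sqle (limma, adjusted p = 0.055) without the filter on dim probes. Without spleen 4, by contrast, 8 genes were called higher, against a background of 14.7%.

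**Figure D4:**
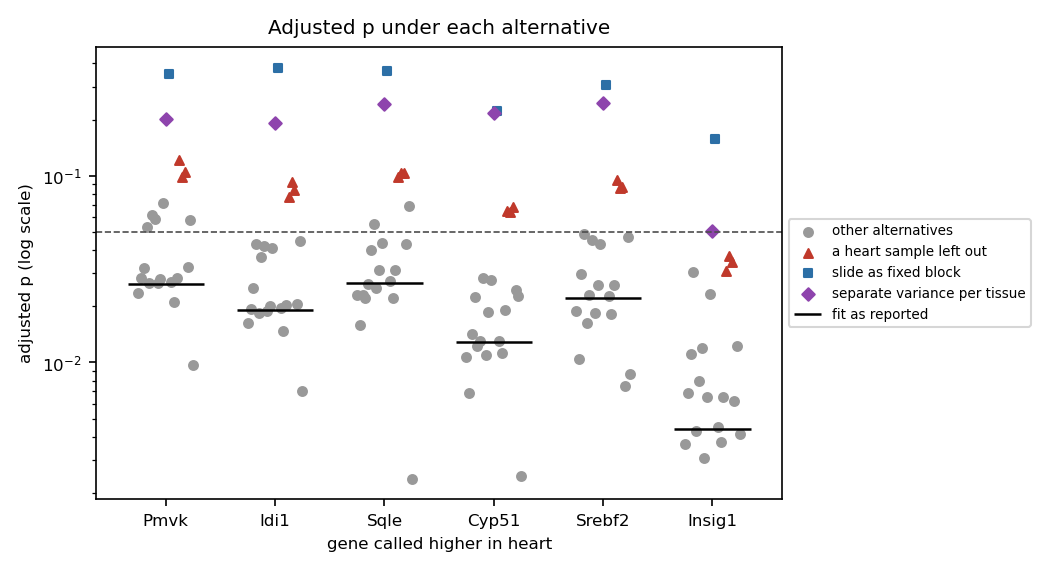
Adjusted p (log axis) of the 6 called genes in the analysis as reported and in each of its 21 alternatives, with a dashed line at the threshold of 0.05. Black lines are the values as reported, red triangles leave out a heart sample, blue squares have slide as a fixed block, purple diamonds a variance per tissue, and grey points are the other alternatives. Insig1 lies below the line in 19 of 21 alternatives, Idi1, Cyp51 and Srebf2 in 16, Sqle in 14 and Pmvk in 11.

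A list of 36 other genes of sterol and lipid handling, chosen like the rest with earlier results of these data known, had 32 tested members, of which 6 were called higher (background 9.05%) and 2 lower (background 6.43%), with a median fold change of 0.32, against 0.11 over all tested genes. Por, the reductase that passes electrons to Cyp51 and Sqle, was at 4.37, 4.07 and 4.29 in heart, against 1.48, 1.76 and 2.03 in spleen (2.49 ± 0.21 SE, limma, adjusted p = 0.00195). Abca1, which exports cholesterol from macrophages, was at 1.71, 1.65 and 1.49 in heart, against 0.46, −2.42 and −2.63 in spleen (3.14 ± 0.80 SE, limma, adjusted p = 0.0456). Fabp5, a fatty acid carrier, was at 5.67, 5.42 and 5.56 in heart, against 2.25, 2.80 and 3.32 in spleen (2.76 ± 0.29 SE, limma, adjusted p = 0.00376). In all 3 genes every heart value was above every spleen value. Related genes of the list did not pass, namely the exporter gene Abcg1 (0.43, limma, adjusted p = 0.136) and the electron transfer gene Cyb5r3 (0.56, limma, adjusted p = 0.0887).

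The other 3 called higher were Nr1h3, the sterol-sensing nuclear receptor LXR alpha (2.09), Hsd17b12, a ketoreductase of fatty acid elongation (1.72), and Npc1, which moves cholesterol out of lysosomes (1.72), with adjusted p from limma of 0.015, 0.00329 and 0.00655. Lbr, which can replace Tm7sf2 in sterol reduction, was called lower, with 2.73, 3.15 and 2.53 in heart, against 3.74, 4.30 and 3.61 in spleen (−1.08 ± 0.27 SE, limma, adjusted p = 0.0418). Both genes for that reduction therefore had lower values in heart, of which only Lbr passed. Elovl7, an elongase, was below the background threshold on every heart array and passed the filter only through its spleen values. As a bound, it was at least 6.82-fold lower in heart. Its call (limma, adjusted p = 0.0192) belongs to the fitted fold change of −3.19, which uses the dim heart values, and not to this bound. Npc2, the brightest gene of the list that was not called, was at 0.61 ± 0.33 (SE, limma, adjusted p = 0.255).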

How the data were processed

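RNA was measured in 3 heart and 3 spleen samples on 6 single-colour Agilent arrays. Each deposited scanner file gives the intensity of every spot, background-corrected by the authors with Agilent Feature Extraction 10.7.3.1 and not scaled between arrays, per the file headers. The authors' deposited series matrix holds log2 values whose differences between arrays followed those of quantile-normalized signals (r from 0.9927 to 0.9994 over 15 pairs of arrays). The median of each of its columns was 0 and its baseline is unknown. It was used as an alternative.

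Processed signals were taken as log2 minus the array's 75th percentile, without control spots and outlier flags. Each gene name was represented by its probe with the highest mean. Gene names are those of the array, and probe coordinates are those in the files (mm9). Their place relative to exons was not analysed here. limma 3.58.1 in R 4.3.3 (lmFit, eBayes, two-sided) was fitted to all 16353 tested genes and was tested on simulated data. A gene dim on all arrays of a tissue has only a bound, for which the other tissue's mean was set against a floor. The floor of an array was its dimmest probe well above background, or the gene's own level if higher. Files were read with data.table (version 1.17.8), and promoters and figures were handled with Python 3.11.15 and matplotlib 3.10.9.

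All 32 genes are named, with every sample's value for those called and the most changed others of each role. Of the further sterol and lipid genes, the 3 most changed called in each direction and the brightest not called are described. The genes, lists, rules and alternatives were chosen with earlier results of these data known. The alternatives were other scalings, background corrections and filters, the authors' table, replicate, date and slide blocks, other variance models and leaving out each sample. The tests of further probes were added after seeing the data. The labels do not say whether equal numbers mark the same mouse. A sample numbered 3 was not analysed here. The number of arrays limits the precision.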

Additional observations from a re-analysis of the deposited data

How the results depend on the processing

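Against 6 genes called higher, 0 called lower and 2532 calls over all genes (limma), 0 were called higher with slide as a fixed block (93 over all genes) and 0 with each tissue's own variance and no moderation (54). Array weights per tissue called 1 lower (Tm7sf2). Leaving out 1 sample gave 1 to 8 genes higher, 0 to 1 lower and 436 to 4016 over all genes. Without a filter on dim probes 1473 genes were called in all. Same-numbered samples also share a date in their titles, and their deviations correlated at −0.054, 0.039 and 0.009, so the numbers were not taken to pair them. The replicate block called 5 of the 30 (Pmvk was lost, adjusted p = 0.0716) and 1510 of all genes. Median scaling moved the median of all genes to 0.22, from 0.11. Genes whose direction turned were not called in either setting. Acly was −0.03 with quantile normalization, the value table and slide as a fixed block. Slide as a fixed block also gave −0.41 for Fdft1, −0.09 for Lss, −0.10 for Nsdhl, −0.52 for Srebf1 and −0.85 for Elovl6. Median scaling gave 0.02 for Mvd and 0.09 for Acaca, and the earlier date alone 0.37 for Mvd and 0.22 for Elovl5. Leaving out 1 sample gave −0.63 to 0.42 for Mvd, −0.17 to 0.14 for Acaca, −0.28 to 0.15 for Elovl5, −0.16 to 0.27 for Fdft1, −0.37 to 1.15 for Lss, −0.16 to 0.56 for Srebf1 and −0.22 to 0.35 for Elovl6. The cause was not tested. Over 21 alternatives adjusted p ran from 0.00308 to 0.158 for Insig1 and from 0.0097 to 0.35 for Pmvk. For Lss, Scd1, Fasn and Fads2 the signal over background limits what can be compared.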
